A study of Homo sapiens with 12 samples.

Results

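Hep3B cells given WWL70 at 20 µM plus lenvatinib were compared with Hep3B cells given lenvatinib at 20 µM alone, in 2 libraries of each group. WWL70 alone at 20 µM against the Hep3B control, also 2 libraries each, showed the same compound without lenvatinib. The labels give neither the lenvatinib dose of the combination nor an exposure time, and they do not say whether the A1 and B1 libraries were grown as separate cultures. A p-value here covers no more than the spread between these samples, and that spread may be technical. Hep3B is an established human hepatocellular carcinoma line. The whole series held 12 mRNA libraries in 6 groups, the rest being Huh7, another hepatocellular carcinoma line, as a control and as a lenvatinib-resistant group. The comparison took the 4 libraries and the 12482 of 20307 genes with TPM (a level scaled by transcript length and library total) of at least 1 in at least 2 of those 4. At that limit, the second highest of the 4 values was 1.001 TPM for FSTL1, just inside, and 0.998 TPM for OPRPN, just outside.

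Lenvatinib blocks the receptor tyrosine kinases for VEGF, FGF and PDGF as well as RET and KIT. Signals from such receptors run largely through the RAS, RAF, MEK and ERK cascade, which switches on immediate early genes, its own feedback inhibitors and entry into the cell cycle. WWL70 is a carbamate that inhibits ABHD6, an enzyme of monoacylglycerol breakdown whose substrates include an endocannabinoid. The study's title places ABHD6 in the response of liver cancer to lenvatinib. The comparison therefore asks what the ABHD6 inhibitor added to lenvatinib at the level of RNA. With the combination's lenvatinib dose unlabelled, a difference in that dose and the addition of WWL70 cannot be told apart.

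Throughout, TPM values are in the order A1, B1. A difference is combination minus lenvatinib on the log2(TPM + 1) scale, on which low genes show less than their full fold. Adjusted p-values are limma's over the 12482 genes, and a gene was called at an adjusted p under 0.05. TPM does not record sequencing depth, so no counting interval can be given, and the precision is set by 2 libraries a group.

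The libraries were those of a hepatocellular line. All 9 hepatocellular markers, among them ALB, AFP, HNF4A, KRT8 and GPC3, reached 1 TPM, and together they summed to between 62500 and 70300 TPM in the combination and 46000 and 48500 TPM with lenvatinib. Of 5 endothelial markers none reached 1 TPM, and CDH5, VWF and KDR were at 0 in all 4 libraries. Of 6 fibroblast markers 3 did (COL1A2, LUM and PDGFRB), with sums of 5.88 to 13.8 TPM in the combination and 10.1 to 14.3 TPM with lenvatinib. Of 5 leukocyte markers CD68 and LYZ did, with sums of 43.7 to 76.1 TPM against 86.0 to 102 TPM. CD3E was at 0 and PTPRC, the marker of all leukocytes, was at most 0.13 TPM.

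The A1 library of the combination differed from all others, and differences are therefore also read within the A1 pair and within the B1 pair. The combination's own libraries differed by a median of 0.826 (log2) over genes, against 0.25 for the lenvatinib libraries, 0.134 for WWL70 and 0.114 for the control. The median TPM over all genes was 2.96 in combination A1 and 6.32 in B1, against 5.91 and 6.92 with lenvatinib. Between combination and lenvatinib, the median difference over all tested genes was -0.59 in the A1 pair and -0.06 in the B1 pair, with SDs over genes of 0.76 and 0.35. The A1 pair difference followed transcript length (Spearman -0.55 over 12425 genes, a description in which all points share the same 2 libraries), whereas in the B1 pair the coefficient was -0.06. In the decile of genes with the shortest transcripts the A1 pair median was 0.36, and in the decile with the longest it was -1.16. The B1 pair gave 0.01 and -0.08 in those deciles. Both pairs gave the same sign for 7453 genes (59.7%), and the Pearson coefficient of the pair differences over genes was 0.22.

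**Figure D1:**
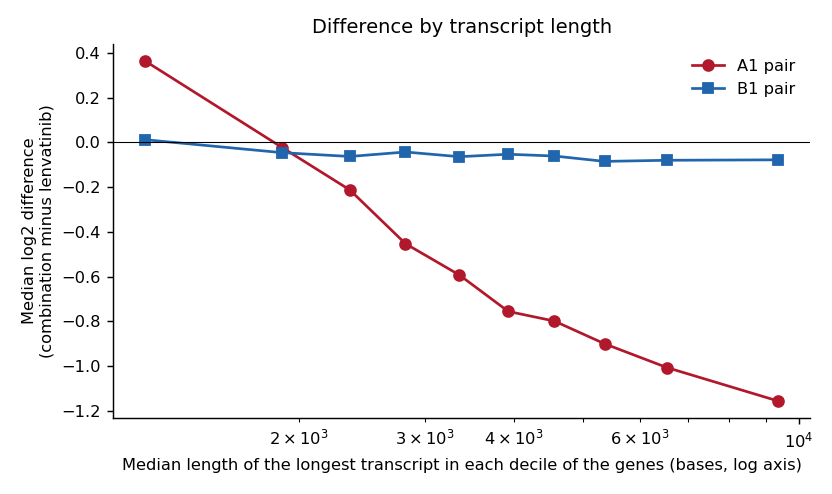
Median difference between combination and lenvatinib (log2(TPM + 1), vertical axis) in each decile of the tested genes by length of the longest annotated transcript (bases, log axis), for the A1 library pair (circles) and the B1 pair (squares). The A1 line runs from 0.36 at the short end to -1.16 at the long end, and the B1 line stays between 0.01 and -0.085.

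Across all 12482 genes, 3 were called higher with the combination (0.024%) and 0 were called lower (0.0%). At an unadjusted limma p under 0.05, 154 genes were higher (1.23%) and 1283 lower (10.3%). The median difference over all genes in this fit was -0.32. It was -0.02 after median-ratio scaling or after removal of the length trend, and -0.01 after quantile normalization, so a single gene's difference is best read against the median of its own pair. In 535 genes (4.29%) both combination libraries were above both lenvatinib libraries, and in 2955 (23.7%) both were below. Above the median of all genes in both pairs stood 3491 genes (28.0%), and as many stood below it in both. With 2 libraries a side, the smallest two-sided p of an exact permutation test is 0.333, so none was used. Leaving out combination A1, lenvatinib A1 and the A1 library of resistant Huh7 cells, the groups whose A1 libraries shared the length deviation, limma called 28 genes higher (0.224%) and 69 lower (0.553%). That fit, added after the data were seen, rests on the B1 pair alone and assumes that its lone libraries vary like the other groups. Its spread comes from WWL70, Hep3B control and Huh7 control, whose libraries differed by medians of 0.134, 0.114 and 0.11. Those of the combination and of lenvatinib differed by 0.826 and 0.25, so its adjusted p-values may be too small. All calls given below without the 3 A1 libraries carry this limit.

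**Figure D2:**
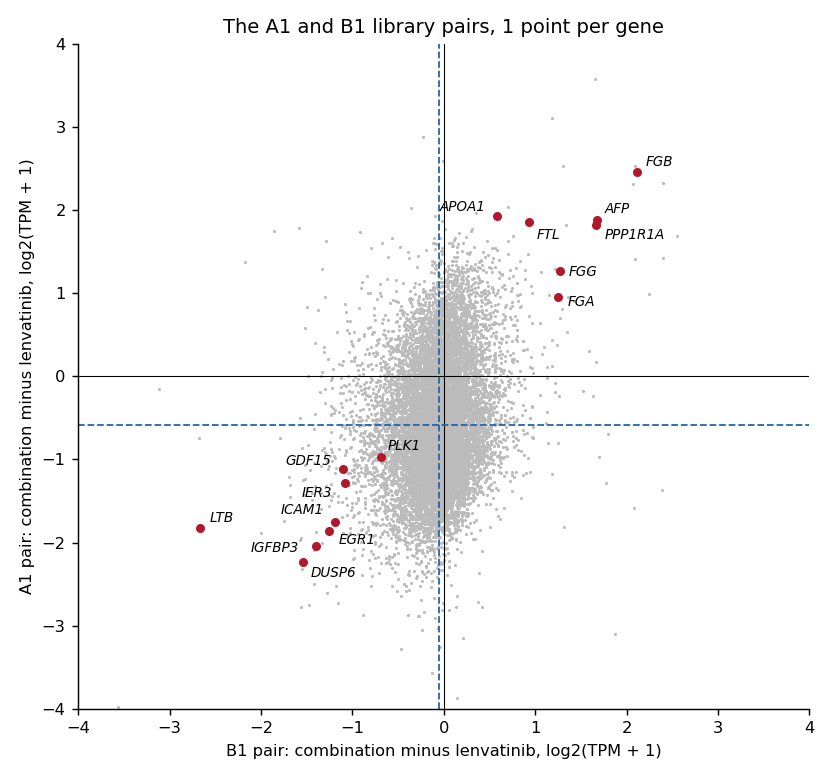
Difference between combination and lenvatinib (log2(TPM + 1)) in the B1 library pair (horizontal axis) and the A1 pair (vertical axis), 1 grey point per gene, with named genes in red and dashed lines at the medians of all genes. The fibrinogen genes lie far to the upper right and LTB, IGFBP3 and DUSP6 to the lower left. The cloud is taller than it is wide and is centred below 0 on the vertical axis, and 1 gene lies outside the axes.

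Of the 3 fibrinogen genes, FGB and FGG rose with the combination and FGA was higher without passing. FGA, FGB and FGG encode the chains of fibrinogen, the hepatocyte-made plasma protein that thrombin cuts to form a clot, and they lie side by side on chromosome 4. FGG (chr4:154604134-154612967, minus strand, GRCh38) had 651 and 637 TPM in the combination, against 269.6 and 264 TPM with lenvatinib. The groups did not overlap, and the difference was 1.27 in the A1 pair and 1.27 in the B1 pair. Read against the median of all genes in each pair, the FGG difference was 1.86 and 1.32. The means were 644 ± 10.1 TPM in the combination and 267 ± 4.21 TPM with lenvatinib (SD, 2 libraries each). The fitted difference was 1.27 (SE 0.13, 95% interval 0.96 to 1.57, adjusted p = 0.0388). FGB (chr4:154562956-154571086, plus strand) stood at 162 and 137 TPM in the combination, against 28.6 and 30.8 TPM with lenvatinib. Its combination libraries were again both far above the lenvatinib libraries, by 2.46 in the A1 pair and 2.11 in the B1 pair, and the fitted difference was 2.29 (SE 0.26, 95% interval 1.71 to 2.87, adjusted p = 0.0401). FGA (chr4:154583126-154590766, minus strand) had 285 and 361 TPM, against 147 and 151 TPM with lenvatinib. It was higher in both pairs (0.95 and 1.25) but missed the threshold (1.10, SE 0.16, adjusted p = 0.0886). In RNA from whole cultures, a change in the number of cells that make a transcript and a change in RNA per cell cannot be told apart.

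In the absence of lenvatinib, FGG had 169 and 183 TPM with WWL70, against 133 and 111 TPM in the control, and FGB had 6.85 and 13.4 TPM, against 13.5 and 12.2 TPM. In FGB those groups overlapped. The difference between the 2 settings, that is, the combination over lenvatinib minus WWL70 over control, was 2.67 for FGB, 0.91 for FGA and 0.74 for FGG, and limma's adjusted p for it was 0.275, 0.746 and 0.746. None of the 3 passed, so a dependence of the rise on lenvatinib was not shown.

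The sizes of these differences varied little with the processing, and the calls varied more. Over 30 alternatives the FGG difference ranged from 1.17 to 1.62 and that of FGB from 2.11 to 2.63, while FGG was called in 10 and FGB in 11. With single libraries left out, FGG kept its call in 2 of 12 fits and FGB in 3 of 12. Each of those fits leaves 1 library in a group. For both genes the fit without combination B1 was among those that kept the call. Most of the tested genes were called in that fit, so the call kept there says nothing particular to fibrinogen. Without the 3 A1 libraries all 3 chain genes were called, with an adjusted p of 0.00719 for FGG, 0.0433 for FGB and 0.00905 for FGA, and so they were with the length trend removed (0.011, 0.011 and 0.011). No fibrinogen gene was called after median-ratio scaling (adjusted p = 0.125 for FGG and 0.0707 for FGB), with the Hep3B libraries alone (0.461 and 0.486), with the 4 libraries alone (0.856 for both) or with array weights (0.951 for both).

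**Figure D3:**
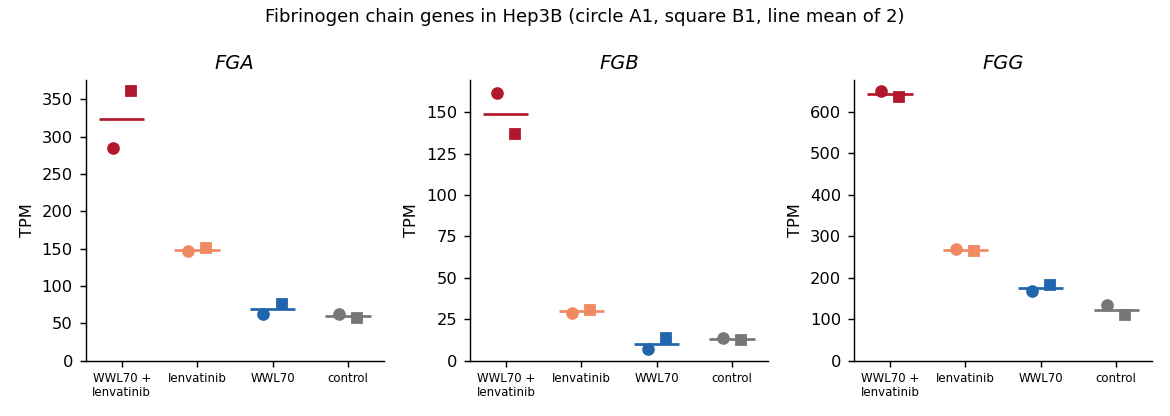
TPM of FGA, FGB and FGG (vertical axes, starting at 0) in the A1 (circle) and B1 (square) libraries of the 4 Hep3B groups, with a line at the mean of 2. In each panel both combination libraries lie above every other library, and for FGB they stand at 162 and 137 TPM against 28.6 and 30.8 TPM with lenvatinib.

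The 250 bases before the RefSeq start of each chain gene (GRCh38.p14) are shown, because these neighbours were all higher in the combination and fibrinogen promoters are a textbook case of control by HNF1 and by interleukin-6 through STAT3. Each is on the gene's own strand, 5′ to 3′, with 2 short motifs in capitals, searched on both strands: GTTAAT, a half-site of HNF1 (ATTAAC when on the other strand), and CTGGGA, the core of the interleukin-6 response element of fibrinogen genes (TCCCAG on the other strand).
FGA, chr4:154590743-154590992, minus strand: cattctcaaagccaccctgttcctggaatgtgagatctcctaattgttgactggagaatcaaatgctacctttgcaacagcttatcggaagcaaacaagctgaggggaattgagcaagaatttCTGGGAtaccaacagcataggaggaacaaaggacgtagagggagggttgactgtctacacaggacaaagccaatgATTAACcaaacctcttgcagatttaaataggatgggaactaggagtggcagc
FGB, chr4:154562730-154562979, plus strand: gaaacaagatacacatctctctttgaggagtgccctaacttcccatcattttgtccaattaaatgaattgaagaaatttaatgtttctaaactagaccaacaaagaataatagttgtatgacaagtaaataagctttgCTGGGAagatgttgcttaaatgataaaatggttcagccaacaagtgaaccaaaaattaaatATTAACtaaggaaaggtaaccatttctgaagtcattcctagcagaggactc
FGG, chr4:154612657-154612906, minus strand: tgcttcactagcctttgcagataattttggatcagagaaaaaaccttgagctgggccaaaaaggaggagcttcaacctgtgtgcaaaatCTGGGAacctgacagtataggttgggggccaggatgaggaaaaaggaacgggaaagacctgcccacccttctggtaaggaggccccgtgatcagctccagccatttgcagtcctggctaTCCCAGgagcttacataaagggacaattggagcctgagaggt
GTTAAT occurred once in the windows of FGA and FGB and not in that of FGG, and 6.23% of 35091 promoters of the same length held it. CTGGGA occurred in all 3 windows, at 2 places in FGG, and in 28.7% of promoters. The matches describe these letters only.

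Other plasma proteins of the liver were mostly above the median of all genes, without passing the test. Of 16 plasma protein genes tested, 0 were called. In both pairs 11 stood above the median of all genes and 1 below, where 28.0% of all genes stood on each side. Without overlap 7 were higher and 2 lower in the combination, where 4.29% and 23.7% of all genes were. The list's median difference was 0.47 in the A1 pair and 0.06 in the B1 pair, against -0.59 and -0.06 for all genes. AFP, the fetal counterpart of albumin and a liver tumour marker that is not on this list, had 80.2 and 84.5 TPM in the combination, against 21.1 and 25.7 TPM with lenvatinib. The groups were well apart, with 1.88 in the A1 pair and 1.68 in the B1 pair, yet the fit gave an adjusted p of 0.253. Its 95% interval was wide (0.79 to 2.76), and the WWL70 libraries, which enter the shared estimate of spread, had 10.1 and 35.6 TPM. ALB, albumin itself, had 26958 and 37468 TPM, against 23063 and 24305 TPM, with an adjusted p of 0.438. RBP4, the carrier of retinol, had 612 and 409 TPM in the combination, against 299 and 291 TPM with lenvatinib. HPX, which binds free heme, had 480.3 and 293 TPM, against 243 and 166 TPM. AMBP, the precursor of alpha-1-microglobulin and bikunin, had 4519 and 2426 TPM, against 2332 and 1780.5 TPM. The A1 and B1 pair steps were 1.03 and 0.49 for RBP4, 0.98 and 0.82 for HPX and 0.95 and 0.45 for AMBP. These transcripts are short (1314, 1652 and 1434 bases), and with the length trend removed the fitted differences were 0.62, 0.87 and 0.60. All list members named here were higher, and the 2 that were lower without overlap are not among them. AMBP was the plasma protein called without the 3 A1 libraries (0.45, adjusted p = 0.0435).

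Apolipoprotein differences lay mainly in the A1 pair. Of 11 genes tested 0 were called, and their median was 0.92 in the A1 pair and 0.11 in the B1 pair. APOA1, the main protein of HDL and a short transcript, had 10617 and 3293 TPM in the combination, against 2796 and 2195 TPM with lenvatinib. Acute phase genes split. Of 10 tested 0 were called, and 4 were higher and 2 lower without overlap, where 4.29% and 23.7% of all genes were. Among the higher was HP, the hemoglobin scavenger haptoglobin, at 8.85 and 3.30 TPM against 1.40 and 1.64 TPM. SAA4, a serum amyloid A made constitutively by the liver, had 17.6 and 8.27 TPM, against 2.21 and 2.75 TPM. SERPINA3, alpha-1-antichymotrypsin, went the other way with 16.8 and 14.9 TPM, against 39.0 and 35.2 TPM (limma adjusted p = 0.241). Its steps were -1.16 and -1.19, or -0.57 and -1.13 against the median of all genes in each pair. CP, the copper-carrying ferroxidase ceruloplasmin, was lower as well, at 13.0 and 32.5 TPM against 41.6 and 54.0 TPM. SERPINA1, the elastase inhibitor alpha-1-antitrypsin, had the smallest step of those named, at 12441 and 10795 TPM against 10482 and 9555 TPM.

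The third gene called has no symbol. ENSG00000285508 (chr20:10413520-10431922, minus strand, protein coding in GENCODE 29) had 4.77 and 3.28 TPM in the combination and was listed at 0 in both lenvatinib libraries, both WWL70 libraries and both Hep3B controls (adjusted p = 0.00587). It passed the filter on low values through the combination libraries alone, so it had to differ, and its p supports nothing. It was not called without lenvatinib B1 (adjusted p = 0.124). It was singled out after its values were seen. The gene lies within MKKS on the same strand, and how reads were shared between these genes is not given in the sources used here. MKKS, which encodes a chaperonin-like protein of the primary cilium, had 19.5 and 25.6 TPM in the combination, against 33.2 and 32.2 TPM with lenvatinib. Its adjusted p was 0.405.

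The next genes by p on the higher side did not pass. PPP1R1A, an inhibitor of protein phosphatase 1 that acts once phosphorylated by protein kinase A, had 16.2 and 10.8 TPM in the combination, against 3.86 and 2.72 TPM with lenvatinib. With WWL70 alone and in the control it was at most 0.142 TPM. The PPP1R1A steps were 1.82 and 1.66, or 2.41 and 1.72 against the median of all genes in each pair (limma adjusted p = 0.0858). H2BC12, a replication-dependent histone H2B gene whose near-identical copies make its reads uncertain, had 49.7 and 39.7 TPM, against 23.0 and 20.1 TPM (adjusted p = 0.108). FTL, the light chain of the iron store ferritin, which also has many processed copies, had 21683 and 9618 TPM, against 6003 and 5021 TPM. It was called without the 3 A1 libraries (0.94, adjusted p = 0.00357). ADH1A, an alcohol dehydrogenase of the liver, had 12.3 and 13.0 TPM in the combination, against 6.08 and 4.23 TPM. PCYT2, which makes the activated ethanolamine for phosphatidylethanolamine, had 271 and 177 TPM, against 133 and 106 TPM. TUBB2B, a beta tubulin, had 55.0 and 46.2 TPM, against 27.0 and 23.1 TPM. In each of these 3 genes the groups did not overlap and the adjusted p lay between 0.176 and 0.253.

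On the lower side no gene was called, and the 5 genes that the naming rule put first were IGFBP3, GDF15, TCIM, CKM and ICAM1, with adjusted p from 0.0858 to 0.0886. IGFBP3, which carries and sequesters insulin-like growth factors, had 25.2 and 36.0 TPM in the combination, against 107 and 96.8 TPM with lenvatinib. GDF15, a secreted stress hormone of the TGF-beta superfamily, had 50.4 and 47.8 TPM, against 110.4 and 104 TPM. The GDF15 step was -1.12 in the A1 pair and -1.10 in the B1 pair, and that of IGFBP3 was -2.04 and -1.40. Read against the median of all genes in each pair, the steps were -0.53 and -1.05 for GDF15 and -1.45 and -1.35 for IGFBP3. TCIM, a small regulator of transcription linked to WNT signalling, had 4.88 and 8.13 TPM, against 20.4 and 23.1 TPM. CKM, the muscle form of creatine kinase, had 2.92 and 2.39 TPM, against 9.74 and 9.93 TPM. In all 5 genes both combination libraries were below both lenvatinib libraries. With the length trend removed, IGFBP3 (0.0277), GDF15 (0.033), CKM (0.033) and ICAM1 (0.011) had an adjusted p under the threshold and TCIM (0.0639) did not. Without the 3 A1 libraries IGFBP3 (0.0395), GDF15 (0.00905), TCIM (0.00719) and ICAM1 (0.00357) were called, and CKM (0.0502) narrowly was not.

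**Figure D4:**
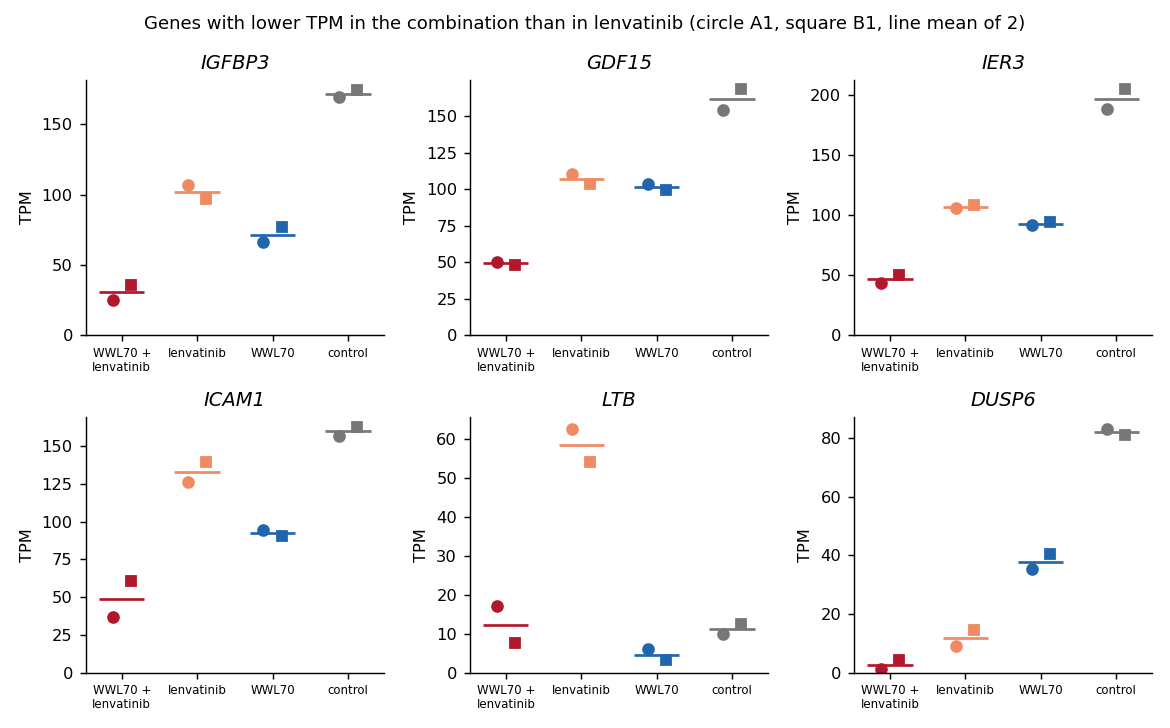
TPM of IGFBP3, GDF15, IER3, ICAM1, LTB and DUSP6 (vertical axes, starting at 0) in the A1 (circle) and B1 (square) libraries of the 4 Hep3B groups, with a line at the mean of 2. Both combination libraries lie below both lenvatinib libraries in every panel, and LTB is the one panel where lenvatinib alone is the highest group.

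Output genes of the ERK cascade stood lower in the combination than with lenvatinib alone. Of 17 genes tested in the ERK feedback and output list, 0 were called and 11 were lower without overlap, against 23.7% of all genes. In both pairs 13 were below the median of all genes and 1 above, where 28.0% of all genes stood on each side. The list's median was -1.19 in the A1 pair and -0.65 in the B1 pair, and it stayed below that of all genes under all 31 settings tried. Without the 3 A1 libraries 4 of its members were called lower: DUSP6, SPRY1, ETV4 and IER3. DUSP6, the phosphatase that ERK induces and that dephosphorylates ERK, had 1.10 and 4.40 TPM in the combination, against 8.94 and 14.7 TPM with lenvatinib. It had 35.3 and 40.4 TPM with WWL70 and 83.1 and 81.0 TPM in the control, so the combination was the lowest of the 4 groups. SPRY1, a Sprouty inhibitor of receptor signalling, had 1.32 and 3.33 TPM, against 5.81 and 9.32 TPM. SPRY2, its relative, had 2.64 and 5.92 TPM, against 8.98 and 9.996 TPM. EPHA2, an ephrin receptor, had 14.5 and 20.8 TPM, against 33.7 and 33.2 TPM. For all 4 genes the groups did not overlap, with adjusted p in the fit of all libraries between 0.203 and 0.341. DUSP9, a relative of DUSP6 that also acts on ERK, was higher instead, at 78.6 and 59.9 TPM against 37.4 and 37.2 TPM (adjusted p = 0.233).

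Immediate early genes showed the same direction. Of 15 tested 0 were called, and 9 were lower without overlap and 0 higher, where 23.7% and 4.29% of all genes were. The list's median was -0.80 in the A1 pair and -0.40 in the B1 pair. IER3, an early response gene of growth factor and NF-kB signalling that belongs to this list and to the ERK list, had 43.1 and 50.5 TPM in the combination, against 106 and 108 TPM with lenvatinib. The steps of the pairs were -1.28 and -1.08, and the fitted difference was -1.18 (SE 0.20, adjusted p = 0.132). EGR1, a zinc finger factor induced within minutes of ERK activation, had 7.99 and 17.6 TPM, against 31.6 and 43.3 TPM. JUNB, a subunit of AP-1, had 53.9 and 45.9 TPM, against 88.7 and 101 TPM. Both JUNB (0.0334) and IER3 (0.00798) were called without the 3 A1 libraries, as adjusted p-values. MYC, the growth regulator, had a smaller step, 42.5 and 60.5 TPM against 74.7 and 82.0 TPM (adjusted p = 0.383).

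The receptors that lenvatinib targets were not called. Of 11 genes in that list 6 were tested and 4 were lower without overlap, where 23.7% of all genes were. In both pairs 3 were below the median of all genes and 1 above. The list's median was -1.14 in the A1 pair and -0.12 in the B1 pair. FGFR4, the receptor for FGF19 in hepatocytes, was the most abundant of these receptors. It had 223 and 234 TPM in the combination, against 267 and 240.1 TPM with lenvatinib. Read against the median of all genes in each pair, FGFR4 was higher, by 0.33 in the A1 pair and 0.02 in the B1 pair. FGFR3 had 88.1 and 167 TPM, against 169 and 191 TPM, and FGFR2 had 24.2 and 60.0 TPM, against 63.2 and 73.0 TPM. FGFR1 was lower in the A1 pair (-1.49) and level in the B1 pair (0.02). PDGFRA, a PDGF receptor, was lower in both pairs at 1.68 and 6.92 TPM against 10.3 and 13.6 TPM (adjusted p = 0.397). PDGFRB overlapped between the groups, with 0.579 and 3.29 TPM against 1.73 and 2.69 TPM.

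NF-kB chemokines and feedback genes were lower as a list. Of 17 tested 0 were called, and 12 were lower without overlap, where 23.7% of all genes were. In both pairs 11 were below the median of all genes and 1 above, where 28.0% of all genes stood on each side. Medians were -1.51 in the A1 pair and -0.41 in the B1 pair, and below that of all genes under all 31 settings. LTB, lymphotoxin beta, a membrane ligand of the TNF family, had 17.0 and 7.69 TPM in the combination, against 62.7 and 54.1 TPM with lenvatinib. Here the B1 pair gave the larger step (-2.66, against -1.82 in the A1 pair), and the adjusted p was 0.108 in the fit of all libraries and 0.029 without the 3 A1 libraries. LTB had 5.95 and 3.24 TPM with WWL70 and 9.89 and 12.4 TPM in the control, so the combination stood near those groups and lenvatinib alone stood above all. ICAM1, the adhesion molecule for leukocyte integrins, had 37.0 and 60.5 TPM, against 127 and 140.0 TPM (difference -1.47, SE 0.22). TNFAIP2, a TNF-induced gene, had 32.2 and 67.7 TPM, against 115 and 121 TPM, and like ICAM1 and LTB it was called lower without the 3 A1 libraries (adjusted p = 0.0492). CXCL5, a neutrophil chemokine, had 11.6 and 26.5 TPM, against 46.3 and 41.1 TPM. The summed CD68 and LYZ level was lower in the same libraries, as given above, and PTPRC was near 0 in all of them.

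The 250 bases before the start of LTB are shown because it had the largest step of the list, with a match to the NF-kB site in capitals. The motif searched on both strands was GGG, any 2 bases and TTTCC, and the match here is on the other strand.
LTB, chr6:31582426-31582675, minus strand: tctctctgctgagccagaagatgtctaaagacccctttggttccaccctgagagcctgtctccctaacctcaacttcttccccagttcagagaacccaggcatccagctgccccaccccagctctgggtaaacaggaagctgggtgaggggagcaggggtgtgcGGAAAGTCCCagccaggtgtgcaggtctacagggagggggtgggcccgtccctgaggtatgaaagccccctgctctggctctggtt
That motif occurred in 1.73% of 35091 promoter windows of this length.

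Of the 30 genes of G2 phase and mitosis, all tested, 0 were called. Without overlap 22 were lower and 0 higher, where 23.7% and 4.29% of all genes were. In both pairs 24 were below the median of all genes and 0 above, where 28.0% of all genes stood on each side. The median was -1.14 in the A1 pair, -0.43 in the B1 pair and -0.53 with the length trend removed, against -0.59, -0.06 and -0.02 for all genes. PLK1 (chr16:23677656-23690367, plus strand), the kinase that drives mitotic entry and spindle assembly, had 38.2 and 55.5 TPM in the combination, against 75.8 and 90.2 TPM with lenvatinib. Both combination libraries were below both lenvatinib libraries (-0.97 and -0.69), with a fitted difference of -0.83 (SE 0.19, adjusted p = 0.241). PLK1 was one of 3 members called lower without the 3 A1 libraries (-0.69, adjusted p = 0.0278), beside PRC1 and ECT2, which act in cytokinesis. CCNB1, the cyclin of mitotic CDK1, had 64.1 and 86.9 TPM, against 134 and 116 TPM. KIF2C, a kinesin that takes apart microtubule ends at centromeres, had 16.9 and 28.2 TPM, against 40.0 and 46.2 TPM. KIF20A, a kinesin of cytokinesis, had 10.9 and 23.5 TPM, against 37.2 and 36.8 TPM. FOXM1, the factor that switches on many G2 and M genes, had 53.2 and 73.9 TPM, against 99.1 and 103 TPM. None of these 4 overlapped between the groups, and their adjusted p lay between 0.253 and 0.291. WWL70 without lenvatinib gave PLK1 118 and 123 TPM, against 137 and 141 TPM in the control, and the list's median difference there was -0.07.

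Cell cycle promoters repressed until G2 typically carry CCAAT boxes and a cell cycle homology region, and the PLK1 window is shown with both marked in capitals, CCAAT and TTTGAA.
PLK1, chr16:23678639-23678888, plus strand: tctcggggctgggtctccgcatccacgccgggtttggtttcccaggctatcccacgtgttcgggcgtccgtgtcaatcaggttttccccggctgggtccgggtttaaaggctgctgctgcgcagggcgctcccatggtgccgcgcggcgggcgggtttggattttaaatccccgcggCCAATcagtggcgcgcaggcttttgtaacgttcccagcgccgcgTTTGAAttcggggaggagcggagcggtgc
Of 35091 promoter windows, 32.0% held CCAAT and 13.3% held TTTGAA on either strand.

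Genes of DNA replication stood nearer to the median of all genes than those of G2 phase and mitosis, though more were lower than higher. Of 30 tested 0 were called. Without overlap 15 were lower and 0 higher, where 23.7% and 4.29% of all genes were. In both pairs 13 were below the median of all genes and 7 above, where 28.0% of all genes stood on each side. The list's median in the B1 pair was -0.09, near that of all genes. RFC4, a subunit of the clamp loader, had 80.4 and 92.0 TPM in the combination, against 126 and 107 TPM with lenvatinib. D cyclins and CDK inhibitors had a B1 pair median of -0.01 over 9 genes, with 0 called.

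Of 12 YAP and TEAD targets tested 0 were called, and 7 were lower without overlap, where 23.7% of all genes were. In both pairs 6 were below the median of all genes and 0 above, where 28.0% of all genes stood on each side. CCN2, a matricellular growth factor partner, had 46.3 and 73.9 TPM in the combination, against 116 and 120.4 TPM with lenvatinib. NT5E, the surface enzyme CD73 that makes adenosine, had 2.19 and 7.93 TPM, against 15.0 and 17.3 TPM, and was called without the 3 A1 libraries (adjusted p = 0.04). Outside that list were DKK1 and KCNJ5. Like CCN2 and NT5E, they were among the 55 of 77 named genes that were chosen after their values were seen. DKK1, a secreted WNT antagonist, had 125 and 178 TPM, against 351 and 297 TPM (adjusted p = 0.134). KCNJ5, an inward rectifier potassium channel subunit, had 0.955 and 2.19 TPM, against 6.84 and 7.01 TPM (adjusted p = 0.0972). The groups did not overlap in any of these 4 genes.

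Cholesterol synthesis and uptake genes stood high in both pairs. Of 21 tested 0 were called, and 6 were higher and 2 lower without overlap, where 4.29% and 23.7% of all genes were. In both pairs 15 were above the median of all genes and 2 below, where 28.0% of all genes stood on each side. The median was -0.08 in the A1 pair and 0.38 in the B1 pair, above that of all genes by 0.31 to 0.50 over all 31 settings. MVD, which makes isopentenyl diphosphate, had 180.2 and 79.0 TPM in the combination, against 64.1 and 48.1 TPM with lenvatinib. IDI1, the isomerase of the next step, had 73.4 and 97.9 TPM, against 53.7 and 56.1 TPM. SREBF1, which encodes the SREBP of fatty acid synthesis, was lower, at 31.8 and 39.5 TPM against 52.5 and 60.2 TPM (limma adjusted p = 0.254). Read against the median of all genes in each pair, its steps were -0.12 and -0.54. The SREBF1 difference was -0.22 with the length trend removed (limma adjusted p = 0.62) and -0.60 without the 3 A1 libraries. In the list of 15 fatty acid synthesis genes 0 were called, with a B1 pair median of -0.16. Hepatic transcription factors had a B1 pair median of -0.22 over 19 genes. Without overlap 7 of them were lower and 0 higher, where 23.7% and 4.29% of all genes were.

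Stress and interferon genes gave mixed values. Of 30 genes of ATF4 and the integrated stress response 0 were called, 14 were lower and 1 higher without overlap, where 23.7% of all genes were lower. Against the median of all genes in both pairs 6 stood above and 7 below, and the fitted median of -0.31 was close to the -0.32 of all genes. FGF21, a liver hormone under ATF4 and PPARA, had 0.73 and 0.333 TPM in the combination, against 1.65 and 1.82 TPM with lenvatinib. FGF21 passed the filter on low values through the lenvatinib libraries alone, so it had to be lower. It is among the 14 lower genes, and its difference supports nothing. SESN2, a stress-induced inhibitor of mTORC1, had 20.5 and 20.2 TPM, against 29.5 and 31.1 TPM. Against the median of all genes SESN2 was higher in the A1 pair and lower in the B1 pair. GDF15 belongs to this list too and was its single member called without the 3 A1 libraries. HERPUD1, a factor of degradation at the ER, had 24.0 and 38.3 TPM, against 53.5 and 50.8 TPM, while the 21 genes of ER chaperones and the unfolded protein response had a B1 pair median of -0.03. Of 15 interferon-stimulated genes 0 were called, and 5 were higher and 2 lower without overlap, where 4.29% and 23.7% of all genes were. The 5 include OASL, which passed the filter on low values through the combination libraries alone. IFI6, an interferon-induced membrane protein, had 28.5 and 17.7 TPM, against 9.64 and 8.92 TPM. ISG15, a ubiquitin-like modifier, had 141 and 63.1 TPM, against 58.5 and 43.5 TPM.

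ABHD6 itself, the target of WWL70, had 3.18 and 7.35 TPM in the combination, against 7.70 and 7.97 TPM with lenvatinib. The difference was -1.06 in the A1 pair and -0.10 in the B1 pair, with a fitted value of -0.58 (SE 0.30, 95% interval -1.26 to 0.10, adjusted p = 0.438). In the list of ABHD6 and endocannabinoid enzymes 8 of 13 genes were tested and 0 called. FAAH, which hydrolyses anandamide, had 16.8 and 11.7 TPM, against 9.56 and 8.38 TPM. FIS1, the mitochondrial outer membrane adaptor of fission, had 77.8 and 46.3 TPM in the combination, against 56.1 and 57.3 TPM with lenvatinib. It was on opposite sides in the pairs (0.46 and -0.30). DNM1L, the dynamin-like GTPase that cuts mitochondria, had 16.5 and 46.7 TPM, against 34.9 and 46.7 TPM, and the B1 pair was level (0.0025). LDHA, which makes lactate, had 255 and 265 TPM, against 301 and 256 TPM. None of these 3 was called, with adjusted p of 0.829, 0.486 and 0.676, and their 95% intervals were -0.45 to 0.61, -1.45 to 0.42 and -0.42 to 0.23.

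Mitochondrial dynamics and apoptosis lists held no called gene. Of 14 fission genes 3 were lower without overlap, no larger a share than the 23.7% of all genes, with 2 above and 2 below the median of all genes in both pairs and a B1 pair median of -0.05. MIEF2, a receptor that recruits DNM1L, had 16.4 and 15.9 TPM in the combination, against 21.0 and 28.2 TPM with lenvatinib. Against the median of all genes MIEF2 was higher in the A1 pair and lower in the B1 pair. DNM2, a dynamin, had 67.6 and 135 TPM, against 151 and 157 TPM. MTFP1, an inner membrane protein of fission, overlapped between the groups at 31.4 and 14.6 TPM against 17.9 and 9.73 TPM. Of 16 fusion and cristae genes 3 were lower without overlap, again no larger a share than over all genes, with 9 above and 3 below in both pairs. Among the 3 was MFN2, an outer membrane fusion GTPase, at 27.1 and 61.2 TPM against 61.6 and 69.8 TPM. Of 22 apoptosis regulators 6 were lower without overlap and 0 higher, near the share of all genes, with 6 above and 7 below the median of all genes in both pairs. BMF, a BH3-only activator of cell death, had 78.6 and 152 TPM, against 203 and 237 TPM. BCL2L1, which encodes the protective BCL-XL, had 127 and 128 TPM, against 175 and 156 TPM. The BCL2L1 difference was above the median of all genes in the A1 pair and below it in the B1 pair. MCL1, another protective member, and TNFRSF10B, a TRAIL receptor, had most of their step in the A1 pair, MCL1 with -1.73 against -0.24 in the B1 pair and TNFRSF10B with -1.76 against -0.45.

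Ribosomal protein and oxidative phosphorylation genes, which have short transcripts, were among the lists where the pairs parted most. Of 36 cytosolic ribosomal protein genes 0 were called and 29 were above the median of all genes in both pairs, but the median was 0.79 in the A1 pair and 0.07 in the B1 pair. They made up 5.69% of TPM in combination A1 and 2.88% in B1, against 3.46% and 2.79% with lenvatinib. Of 33 nuclear-encoded oxidative phosphorylation genes 24 were above in both pairs, with medians of 0.63 and 0.14. The 13 mitochondrially encoded genes had medians of -0.76 and -0.14. The part of transcript length in these values was not tested beyond the length-corrected medians, which were 0.38, 0.28 and -0.59 for the ribosomal, nuclear and mitochondrially encoded lists.

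**Figure D5:**
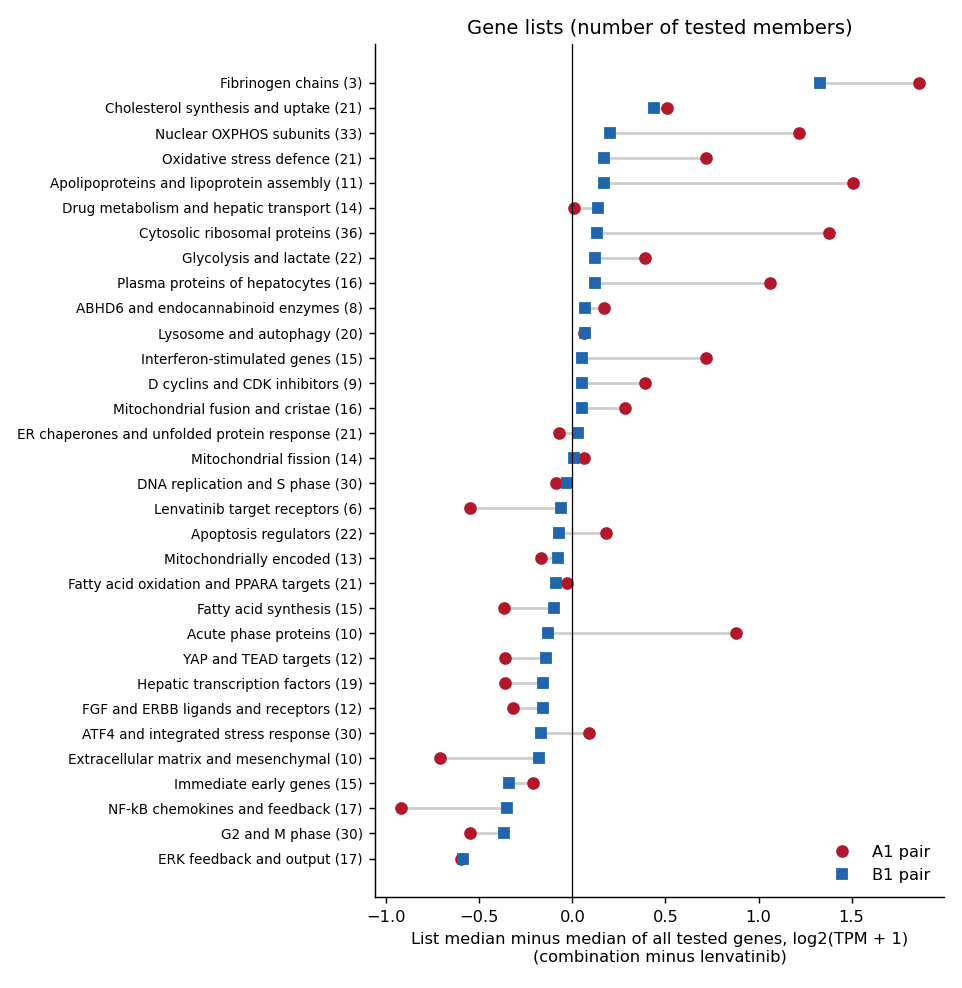
Median difference between combination and lenvatinib for each gene list minus that of all tested genes (log2(TPM + 1), horizontal axis), in the A1 pair (circles) and the B1 pair (squares), with the number of tested members in brackets. ERK, G2 and M, NF-kB and immediate early lists are left of 0 in both pairs, the fibrinogen and cholesterol lists right of 0 in both, and ribosomal and apolipoprotein lists are far apart between the pairs.

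The same compound could also be read without lenvatinib, in WWL70 against control, which shares no library with the combination against lenvatinib. Over the 12482 genes, the Pearson coefficient between the combination minus lenvatinib and WWL70 minus control was -0.01 in the A1 pairs, 0.17 in the B1 pairs and 0.08 with the length trend removed. Of 1044 genes lower in the combination (unadjusted limma p under 0.05, no overlap, mean of at least 5 TPM in the higher group), 391 were also lower with WWL70 than in the control without overlap and 188 were higher, where 27.3% of 10712 genes at that level were lower and 23.0% higher. Of 127 genes higher in the combination, 32 were higher with WWL70 and 38 lower. WWL70 against control called 1 gene (0.00801%), OASL, an interferon-induced relative of oligoadenylate synthetase, and 291 genes had an unadjusted p under 0.05 (2.33%). OASL had 3.31 and 3.65 TPM with WWL70, against 0.116 and 0.139 TPM in the control (limma adjusted p = 0.0101). It had 1.11 and 1.14 TPM in the combination, against 0.14 and 0.272 TPM with lenvatinib. OASL passed the filter on low values through the combination libraries alone. Its higher value there than with lenvatinib therefore supports nothing.

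Some of the lower genes were also lower with WWL70 alone. IGFBP3 had 66.2 and 77.0 TPM with WWL70, against 169 and 174 TPM in the control. IER3 had 91.7 and 93.9 TPM, against 188 and 204 TPM, and GDF15 had 104 and 99.4 TPM, against 154 and 169 TPM. ICAM1 had 94.7 and 90.9 TPM, against 157 and 163 TPM. In these 4 genes the WWL70 and control groups did not overlap, though none was called (adjusted p of at least 0.635), and the combination was the lowest of the 4 Hep3B groups. TNFAIP2 and JUNB were not of that kind, with 52.7 and 54.3 TPM with WWL70 against 41.4 and 48.8 TPM in the control for TNFAIP2 and 80.0 and 71.8 TPM against 59.1 and 66.5 TPM for JUNB. The interaction test called 0 genes (0.0%), with 602 at an unadjusted p under 0.05 (4.82%). Its median standard error was 0.43, against 0.30 for the combination over lenvatinib, so differences of this kind were estimated with less precision.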

How the data were processed

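TPM values of 20307 Ensembl genes in 12 libraries were deposited by the authors as 1 table, each column summing to 1000000. Per the labels' protocols, RNA was extracted with Trizol and mRNA was captured on beads. Per the submitters' processing notes, fastp 0.18.0 and hg38 were used. No aligner, quantifier or annotation was given in the sources used here. Depth is unknown.

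Symbols came from a table of gene names and from GENCODE 29 (20162 identifiers matched). limma 3.58.1 in R 4.3.3 was fitted to log2(TPM + 1) with group means over all 12 libraries and an intensity trend (6 residual degrees of freedom, prior 2.95). Benjamini-Hochberg adjustment was over 12482 genes. The procedure was tested on simulated data, in which each gene had the same spread in all groups and no A1 deviation was shared. It called 14 of 100 genes with a true log2 change of 1 and 63 of 100 with a change of 2. A gene that was not called may therefore still differ. Lengths were those of the longest GENCODE 29 transcript. Promoter windows came from RefSeq (GRCh38.p14).

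The comparison, the 36 lists (638 genes) and the tests were chosen with earlier results of these data known. Named were ABHD6, FIS1, DNM1L, LDHA, 4 markers, expressed lenvatinib targets, and the called genes of at least 5 mean TPM, filled to 5 a direction by smallest p; 22 genes came from this rule, and 55 others were named after their values were seen. Some genes that a count includes are not reported here. ETV4, PRC1, ECT2, MKKS and the cell type markers were named beside them.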

Additional observations from a re-analysis of the deposited data

Results flagged for a closer look

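For 16 named genes, both libraries moved 1 way in the combination against lenvatinib and the other way in WWL70 against control, with no overlap in either comparison. The genes were looked at because of these values, so the pattern is a description, and its share over all genes was not counted. Of 10712 genes with a mean of at least 5 TPM, 23.0% were higher and 27.3% lower with WWL70 than in the control without overlap. Of all 12482 tested genes, 4.29% were higher and 23.7% lower in the combination than with lenvatinib without overlap. Several genes listed as lower stood near or above the median of all genes in 1 pair. Against it, the A1 pair gave 0.25 for MIEF2, -0.05 for RFC4 and -0.12 for JUNB and SREBF1, and the B1 pair gave -0.05 for ABHD6. TNFAIP2 (-1.22 and -0.78), HERPUD1 (-0.53 and -0.34) and MFN2 (-0.57 and -0.13) were below it in both pairs. Lower in the combination, with a higher value for WWL70 than for the control, were ABHD6 (WWL70 minus control 0.33, log2), JUNB (0.27), TNFAIP2 (0.25), MIEF2 (0.16), HERPUD1 (0.13), SREBF1 (0.10), RFC4 (0.10) and MFN2 (0.09). Higher in the combination, with a lower value for WWL70 than for the control, were AFP (-1.35), SERPINA1 (-0.56), ADH1A (-0.54), IFI6 (-0.49), TUBB2B (-0.38), H2BC12 (-0.16), MVK (-0.09) and PCYT2 (-0.07). The difference between the comparisons was tested as limma's interaction, and none of the 16 passed, with an adjusted p of 0.746 for each. The largest interaction was that of AFP, 3.12, and its WWL70 libraries stood at 10.1 and 35.6 TPM, against 53.8 and 46.8 TPM in the control.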

How the results depend on the processing

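Of 77 named genes, 70 kept their direction under all 30 alternatives. LDHA turned to 0.25 with median-ratio scaling, to 0.05 with the length trend removed (also with the replicate block or with array weights) and without the 3 A1 libraries, and to 0.02 without lenvatinib A1 (from -0.21 to 0.02 with each library left out). FIS1 turned to -0.16 in the 3 fits with the length trend removed, to -0.29 without combination A1 (from -0.29 to 0.45 with each library left out) and to -0.3 without the 3 A1 libraries. DNM1L turned to 0.21 without combination A1 (from -1.24 to 0.21 with each library left out) and to 0.0 without the 3 A1 libraries, and FGFR1 to 0.02 there. FGFR4 turned to 0.2 with median-ratio scaling and 0.12 in the 3 length fits. PDGFRB turned to 0.07 with quantile normalization, 0.2 in the 3 length fits, 0.43 without combination A1 (from -1.01 to 0.43 with each library left out) and 0.22 without the 3 A1 libraries. SERPINA1 turned to -0.07 with quantile normalization. The cause was not tested for any of them.

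Genes called for the combination against lenvatinib (3 as reported) numbered 8 with pseudocount 5, 13 with no filter on low values, 0 with a filter at 5 TPM, 0 with median-ratio scaling, 10 with the length trend removed (5 higher, 5 lower), 14 with the replicate block and the length trend removed, 1 with the replicate block, 1 with Hep3B libraries alone, 0 with the 4 libraries alone, 0 with array weights with or without the length trend, 1 without the intensity trend, 1 with robust moderation, 97 without the 3 A1 libraries and 1 at an adjusted p under 0.01. With each library left out the count ranged from 0 (without lenvatinib B1) to 7894 (without combination B1, 1374 higher and 6520 lower), and it was 7 without combination A1, 3 higher and 4 lower. The interaction (0 called) gave 2 with no filter, 1 with a filter over all 12 libraries, 7 without the 3 A1 libraries, and 0 to 6185 with each library left out, the highest without combination B1. WWL70 against control (1 called) gave 0 with pseudocount 0.1, quantile normalization, median-ratio scaling, a filter at 5 TPM, the length trend removed with or without the block, Hep3B libraries alone or an adjusted p under 0.01, 5 with no filter, 2 with a filter over all 12 libraries, 242 with array weights, 259 with array weights and the length trend removed, 130 without the 3 A1 libraries, and 0 to 1 with each library left out. Same-letter deviations correlated at 0.709 between combination and lenvatinib, 0.772 between combination and resistant Huh7 and 0.657 between lenvatinib and resistant Huh7 (0.515 to 0.66 with the length trend removed), but from -0.139 to 0.071 in the other pairs. The A1 libraries of 3 groups, both groups compared here among them, thus share a deviation, and the letters did not pair the samples over all 6 groups. With the replicate block FGG had an adjusted p of 0.0739 and FGB of 0.0803, and neither was called; with the block and the length trend removed both were. TPM gives no depth, so it is not known which low genes are limited by it. The fit without the 3 A1 libraries and the fit with array weights and the length trend removed were added after seeing the data.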
